A study of Mus musculus with 6 samples.

Results

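Genes of the B lineage were followed in the leukemia-initiating cells (LICs) of a mouse acute myeloid leukemia. The group held 9 of the 27179 genes listed in the deposited expression table: Ighm, Igkc, Cd79a, Cd79b, Vpreb1, Igll1, Ebf1, Pax5 and Blnk. They were chosen by symbol from expression values of these same libraries that were already known, so their levels and group differences are given as a description with no test. Of the 9 genes, 8 had at least 1 read somewhere, 3 had reads in all 6 libraries (Ighm, Igkc and Cd79b) and Blnk had none. Of the most abundant, Cd79b was nearly level over the libraries, Igkc varied widely and Ighm did not follow Igkc, and Cd79a, Ebf1, Pax5 and Blnk were at or near 0 in every library, as was Ms4a1 outside the group.

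The study asked how transcripts differ between LICs with and without Asic3, an acid-sensing ion channel. Lin- fetal liver cells that were Asic3+/+ or Asic3-/- were infected with a retrovirus carrying MLL-AF9-IRES-YFP and transplanted into lethally irradiated C57BL/6 recipients, so YFP marked the descendants of infected donor cells and host cells did not carry the virus. YFP+Mac-1+c-Kit+ LICs were sorted from the bone marrow, and their total RNA was sequenced as 3 libraries labelled Asic3-null (K1, K3 and K5, the K libraries) and 3 labelled WT (W6, W7 and W9, the W libraries), all of strain C57BL/6 with an age given as 8 weeks. Both groups carried MLL-AF9, and whether the 3 libraries of a group came from separate animals is not given in the sources used here, so the p-values below measure only the spread between these libraries.

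The immunoglobulin of a B cell is made of a heavy chain and a light chain, each with a variable part that is assembled from gene segments and a constant part such as that of Ighm (heavy mu) or Igkc (light kappa). It signals through the partner proteins Cd79a and Cd79b, and the adaptor Blnk passes the signal on. Before a light chain is made, Vpreb1 and Igll1 form a surrogate light chain in its place, and the transcription factors Ebf1 and Pax5 set and hold B cell identity. Unrearranged immunoglobulin loci can also be transcribed without giving a protein.

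Values are RPKM, read counts scaled to gene length and library size, and the reads behind them were recovered from the table. The depth was low, with 1947168 to 2381861 reads per library, and a count of 0 allows a level of up to 3 reads, or 1.26 to 1.54 CPM (reads scaled to library size alone) depending on the library (counting error only, since the reads carry no molecular identifiers). Asic3 itself was at 9.12, 4.11 and 6.58 RPKM in K1, K3 and K5 and at 1.22, 1.85 and 0.435 RPKM in W6, W7 and W9, which runs opposite to the labels, so K and W stand only for what the labels say; the part of the gene removed in the null allele is not given in the sources used here. Xist was at 46.5 to 71.9 RPKM in the K libraries and at most 0.0573 RPKM in the W libraries, while Ddx3y, Kdm5d, Uty and Eif2s3y of the Y chromosome had reads only in the latter, so sex-linked expression and group cannot be told apart. The sort markers were present in both groups, with Kit at 14.4 to 20.4 RPKM in the K libraries and 8.97 to 15.3 RPKM in the W libraries. Itgam, which encodes the Mac-1 alpha chain, was at 14.0 ± 2.51 against 76.8 ± 18.8 RPKM (SD, n = 3 each, log2 fold change -2.35 with a standard error of 0.21, limma adjusted p = 0.000720).

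Among the immunoglobulin chains, Ighm (Entrez 16019, chromosome 12, 113418826 to 113422730 of GRCm38) was the most abundant of the 9 genes. It stood at 48.1, 100.5 and 132.5 RPKM in K1, K3 and K5 and at 84.5, 132.6 and 75.9 RPKM in W6, W7 and W9, from 166 to 464 reads per library. The groups overlapped, with the highest values of each (K5 and W7) nearly equal and K1 lowest. Ighm averaged 93.7 ± 42.6 RPKM in the K and 97.7 ± 30.5 RPKM in the W libraries (SD, n = 3). The log2 fold change, K minus W on the log2(RPKM + 1) scale, was -0.13 with a standard error of 0.35. The sign depended on single libraries, since the log2 fold change was 0.28 without K1 and 0.11 without W7. By its mean over the 6 libraries, Ighm exceeded 94.2% of all genes with a read. Here and below, fewer cells of a type and less RNA per cell cannot be told apart in bulk RNA.

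Igkc (Entrez 16071, chromosome 6, 70726435 to 70726754) was less abundant and far more uneven. It was at 24.3, 1.31 and 9.32 RPKM in K1, K3 and K5, from 18, 1 and 7 reads. In W6, W7 and W9 it was at 13.4, 73.8 and 55.4 RPKM, from 9, 46 and 42 reads. W7 and W9 stood above the other 4 libraries, K3 held a single read, and the groups overlapped because K1 lay above W6. Igkc averaged 11.6 ± 11.7 RPKM in the K and 47.5 ± 31.0 RPKM in the W libraries (SD, n = 3). Its log2 fold change was -2.22 with a standard error of 0.85, and lay between -3.01 without K1 and -1.28 without K3.

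The mu heavy chain and the kappa light chain did not share an order. Of the 15 pairs of libraries, Ighm and Igkc ranked 7 the same way and 8 the opposite way. The light chain was at 1.31% of Ighm in K3 (from its 1 read), 7.03% in K5, 15.8% in W6, 50.5% in K1, 55.7% in W7 and 73.0% in W9. K5 and W7, which had nearly the same Ighm, thus differed widely in Igkc.

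**Figure D1:**
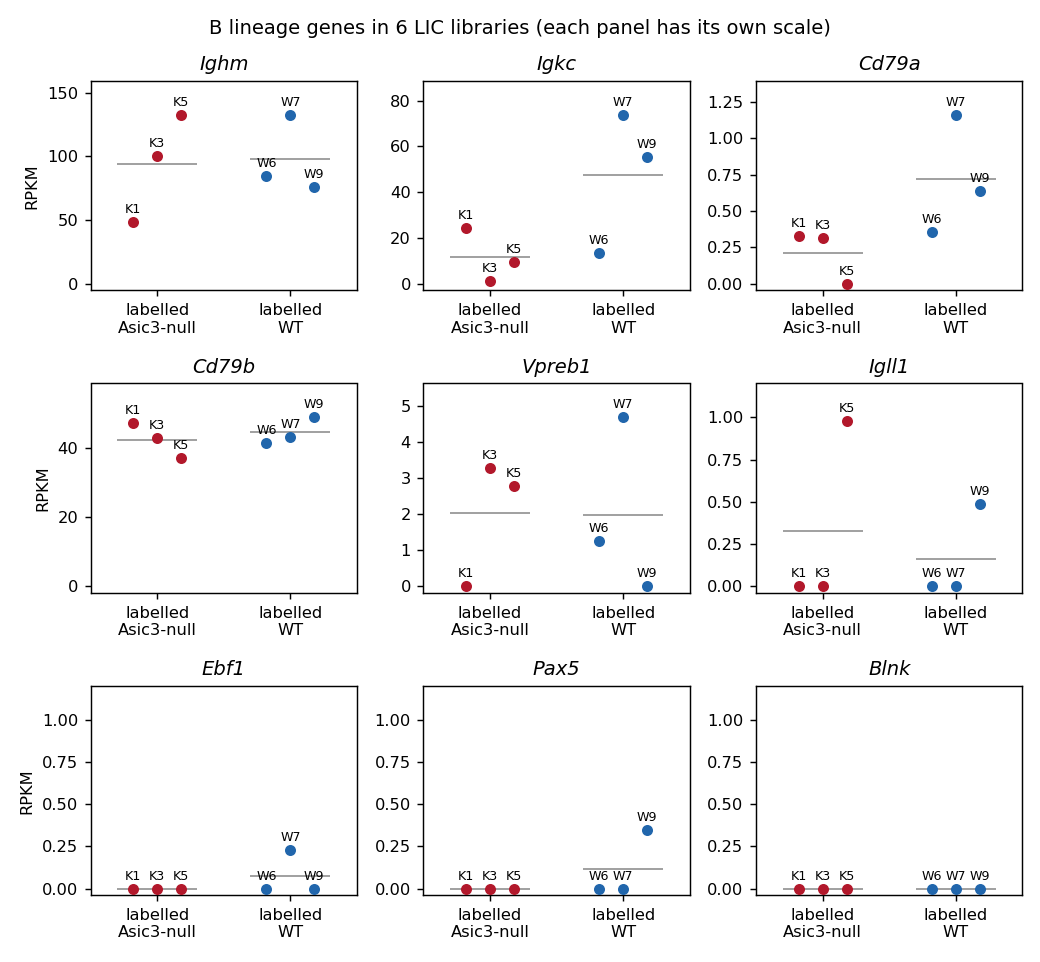
RPKM of the 9 B lineage genes in each library, 1 panel per gene with its own linear scale from 0; points are libraries (red labelled Asic3-null, blue labelled WT) and grey lines are group means (n = 3). Ighm and Cd79b were present in every library, Igkc ran from 1.31 to 73.8 RPKM, and Ebf1, Pax5 and Blnk were at or near 0.

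The receptor's signalling partners were split. Cd79b (Entrez 15985, chromosome 11, 106311341 to 106314562) was at 47.2, 43.1 and 37.3 RPKM in K1, K3 and K5 and at 41.7, 43.3 and 49.0 RPKM in W6, W7 and W9, from 101 to 139 reads. It was the most even of the members, with a highest library 1.31-fold above the lowest, group means of 42.6 ± 4.97 and 44.7 ± 3.85 RPKM (SD, n = 3) and a log2 difference of -0.07 (standard error 0.14). Cd79a (Entrez 12518, chromosome 7, 24897497 to 24901858), whose protein pairs with that of Cd79b in B cells, was at 0.325, 0.316 and 0 RPKM in K1, K3 and K5 and at 0.358, 1.16 and 0.637 RPKM in W6, W7 and W9. These values stood for 1, 1 and 0 reads against 1, 3 and 2 reads, and 3 reads on Cd79a are worth 0.949 to 1.16 RPKM, so the level was at or under what a count of 0 allows. Cd79a thus reached at most 2.68% of Cd79b per length in any library. Cd79b ranked 11 of the 15 library pairs as Igkc did, 5 as Ighm did and 5 as Vpreb1 did, but its range is so narrow that counting error alone can change its order, and nothing is read from these tallies.

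Of the surrogate light chain, Vpreb1 (Entrez 22362, chromosome 16, 16868401 to 16869255) was at 0, 3.28 and 2.77 RPKM in K1, K3 and K5 and at 1.24, 4.68 and 0 RPKM in W6, W7 and W9. These were 0, 6 and 5 reads against 2, 7 and 0 reads, and each group held a library without any. Vpreb1 averaged 2.02 ± 1.77 RPKM in the K and 1.97 ± 2.43 RPKM in the W libraries (SD, n = 3), with a log2 fold change of 0.11 (standard error 0.71) that turned negative when K3, K5 or W9 was left out (-0.27, -0.17 and -0.50). Vpreb1 and Ighm ranked 13 of the 15 library pairs the same way, 1 the opposite way and 1 tied. With at most 7 Vpreb1 reads per library, counting error alone can change its order, and nothing is read from this tally. The Vpreb1 transcript is identical to that of its neighbour Vpreb2 at 739 of 759 aligned positions (97.4%), so how its few reads were shared between both genes is uncertain. Vpreb2 was listed with 1 read, in W7. Igll1, the partner of Vpreb1 in the surrogate chain and a neighbour on chromosome 16 (Entrez 16136, 16860671 to 16863985), had 2 reads in K5 (0.979 RPKM) and 1 read in W9 (0.486 RPKM). W7 and K3, the libraries with most Vpreb1, had no read on Igll1.

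The lineage factors were nearly without reads. Ebf1 (Entrez 13591, chromosome 11, 44618100 to 45008096) had 1 read, in W7 (0.228 RPKM). Pax5 (Entrez 18507, chromosome 4, 44524748 to 44710694) had 1 read, in W9 (0.350 RPKM). Blnk (Entrez 17060, chromosome 19, 40928927 to 40994221) had no read in any library. At this depth no group difference in these 3 genes was detectable.

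The start regions of the genes with few reads are shown because Ebf1, PU.1 and other lineage factors are known to act at promoters of this kind. The RefSeq promoter table for GRCm38.p6 held 6 of the 9 genes (Pax5, Cd79a, Ebf1, Igll1, Vpreb1 and Blnk), each as 250 bases before to 50 after the start. Cd79a lies at chr7:24897247-24897546 on the plus strand, Vpreb1 at chr16:16869206-16869505 on the minus strand and Igll1 at chr16:16863936-16864235 on the minus strand. Each is written 5′ to 3′ on the gene's strand, and capitals mark matches to the motifs searched.
Cd79a: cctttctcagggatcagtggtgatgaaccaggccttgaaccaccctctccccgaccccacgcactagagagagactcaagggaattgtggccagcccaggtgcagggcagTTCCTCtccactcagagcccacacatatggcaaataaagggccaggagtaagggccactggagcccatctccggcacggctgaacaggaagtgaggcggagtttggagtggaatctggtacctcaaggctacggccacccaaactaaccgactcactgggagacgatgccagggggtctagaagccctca
Vpreb1: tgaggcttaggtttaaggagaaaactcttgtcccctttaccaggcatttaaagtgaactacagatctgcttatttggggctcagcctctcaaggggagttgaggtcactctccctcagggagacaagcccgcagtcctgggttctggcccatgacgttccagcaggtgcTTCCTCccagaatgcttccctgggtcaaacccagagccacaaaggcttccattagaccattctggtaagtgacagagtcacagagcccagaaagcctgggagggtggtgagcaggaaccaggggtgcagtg
Igll1: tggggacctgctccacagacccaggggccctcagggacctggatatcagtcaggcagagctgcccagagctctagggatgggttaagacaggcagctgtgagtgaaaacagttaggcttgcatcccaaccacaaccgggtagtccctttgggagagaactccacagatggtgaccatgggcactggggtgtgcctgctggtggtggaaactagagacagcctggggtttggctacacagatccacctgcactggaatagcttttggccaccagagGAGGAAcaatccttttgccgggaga

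Matches were sought on both strands to the PU.1 core GAGGAA, the octamer ATGCAAAT, the GC box GGGCGG and the EBF palindrome, none of which overlapped another in these windows. The capitals above are all PU.1 cores, starting 140 bases before the start in Cd79a and 81 before in Vpreb1, both on the strand opposite to the gene, and 25 after it in Igll1. This core occurs in 28.3% of all 32851 promoter windows of the table. Blnk held an octamer (in 1.74% of windows) 130 bases before its start, Pax5 held 2 GC boxes (in 35.7%), and of the 2 Ebf1 windows 1 held a PU.1 core. None of the windows of the 6 genes held the EBF palindrome, which 0.904% of all windows did. Only exact matches to this palindrome were sought, so EBF sites with other letters were not tested. A match describes the letters only.

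Summed over the 9 genes, the level was 119.9, 148.5 and 182.9 RPKM in K1, K3 and K5 and 141.2, 255.8 and 181.8 RPKM in W6, W7 and W9. The group averages of this sum were 150.5 ± 31.5 and 192.9 ± 58.1 RPKM (SD, n = 3), a log2 ratio of -0.36. Leaving out a library moved it between -0.10 (without W7) and -0.54 (without W6), and reads scaled to library size alone gave -0.14. Ighm made up 40.1% to 72.5% of the sum, Cd79b 16.9% to 39.4% and Igkc 0.883% to 30.5%. Among the members whose group means are given above, those of Igkc lay farthest apart.

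Only 4 members (Ighm, Igkc, Cd79b and Vpreb1, the last at a mean of 2.00 RPKM) reached the mean of 1 RPKM needed for the fit across genes, and Cd79a, at 0.466 RPKM, was the highest of the 5 that did not. The groups overlapped for all 4, against 22.6% of the 12037 tested genes without overlap (11.2% higher and 11.4% lower in K). Nothing is read from this count, since the members were named with this contrast known.

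Igha and Jchain, which belong to class-switched and secreted immunoglobulin, were ordered over the libraries more like Igkc than like Ighm. Mzb1, a gene of immunoglobulin secretion, had 1, 3 and 3 reads in K1, K3 and K5 and 2, 4 and 2 in W6, W7 and W9, too few to order the libraries. Igha, the constant region of the alpha heavy chain found after class switching, was at 18.3, 5.14 and 2.09 RPKM in K1, K3 and K5 and at 15.1, 52.0 and 26.6 RPKM in W6, W7 and W9. It ranked 14 of the 15 library pairs as Igkc did and 6 as Ighm did, and its log2 fold change was -2.00 (standard error 0.63, limma adjusted p = 0.158). Jchain, which joins secreted immunoglobulin into polymers, was at 0.411, 0 and 0 RPKM against 0.679, 5.13 and 2.61 RPKM, ranked 13 of the 15 pairs as Igkc did and 7 as Ighm did, and had a log2 fold change of -1.57 (standard error 0.47, limma adjusted p = 0.134). That size depends on the pseudocount, since 2 K libraries had no Jchain read, and was -3.69 with a pseudocount of 0.1 and by limma-voom, where Igha was at -2.22 and -2.19. Neither passed the test, and each passed when a single library was left out, Igha without K1 (limma adjusted p = 0.0415) and Jchain without W6 (limma adjusted p = 0.0445). Cd79b ranked 12 of the pairs as Igha did and 10 as Jchain did, with the same limit. Igkc, Igha and Jchain were all highest in W7 and next highest in W9, and W7 was also the library with the fewest reads.

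**Figure D2:**
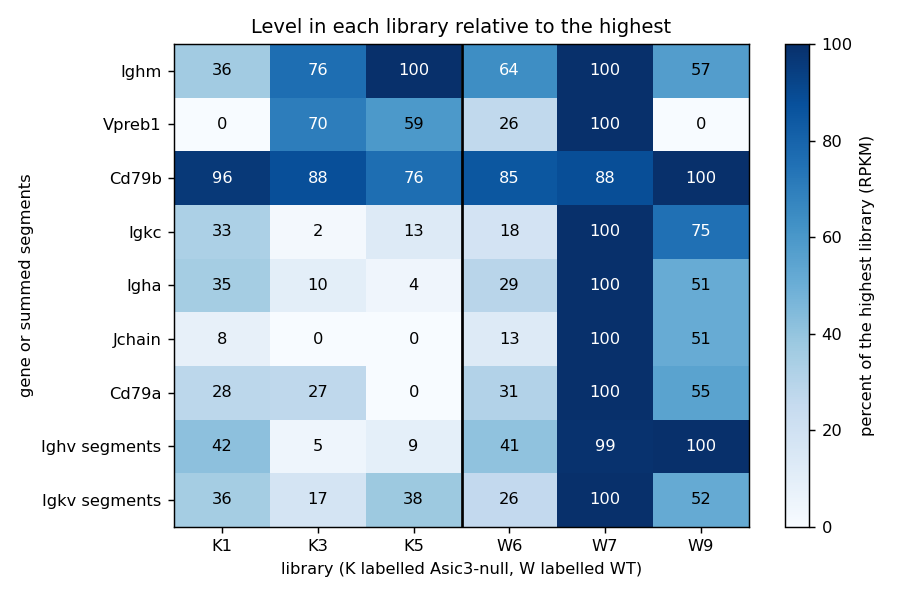
RPKM in each library as a percent of the highest library for that row, for members with reads in at least 4 libraries, Igha, Jchain and the summed variable segments; the black line separates the groups. Igkc, Igha, Jchain and the Ighv segments were low in K3 and K5 (at most 12.6% of the highest library), where Ighm was at 75.8% and 99.9%, and Cd79b was at 76.2% or more in every library.

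Variable segments gave a further view of the immunoglobulin reads, chosen after the members' values were seen. Of 120 heavy chain variable segments (Ighv) listed, 22 had reads, 55 in all, with 9, 1 and 2 in K1, K3 and K5 and 7, 18 and 18 in W6, W7 and W9. Their summed RPKM came to 27.2%, 1.42% and 2.18% of Ighm in K1, K3 and K5, and to 15.2%, 23.5% and 41.5% in W6, W7 and W9. Taken over all heavy chain constant genes, the shares were 18.2%, 1.34% and 2.11% in K1, K3 and K5. In W6, W7 and W9 these were 12.8%, 16.5% and 29.4%. K3 and K5, with Ighm inside the range of the other libraries or level with its top, had 1 and 2 Ighv reads. The 4 heavy chain joining segments (Ighj) had 1, 0 and 8 reads in K1, K3 and K5 and 6, 7 and 8 in W6, W7 and W9, so that K5 stood with the W libraries there (65.5 RPKM against 56.5 to 69.7 RPKM) and K3 had none. The 18 reads of W9 fell on 12 different segments and the 18 of W7 on 8.

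Of 103 kappa variable segments (Igkv), 29 had reads, 75 in all, with 12, 6 and 13 in K1, K3 and K5 and 8, 18 and 18 in W6, W7 and W9. A single segment, Igkv14-111, held 26 of them and was present in all 6 libraries (4, 5 and 9 reads against 4, 1 and 3). Without it, the Igkv reads were 8, 1 and 4 in K1, K3 and K5 and 4, 17 and 15 in W6, W7 and W9. Per length, these remaining segments came to between 32.3% and 92.2% of Igkc, the highest share being that of K3 with 1 read on either side. The kappa constant region and these variable segments were both highest in W7 and next highest in W9, while the mu constant region was highest in W7 and K5.

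**Figure D3:**
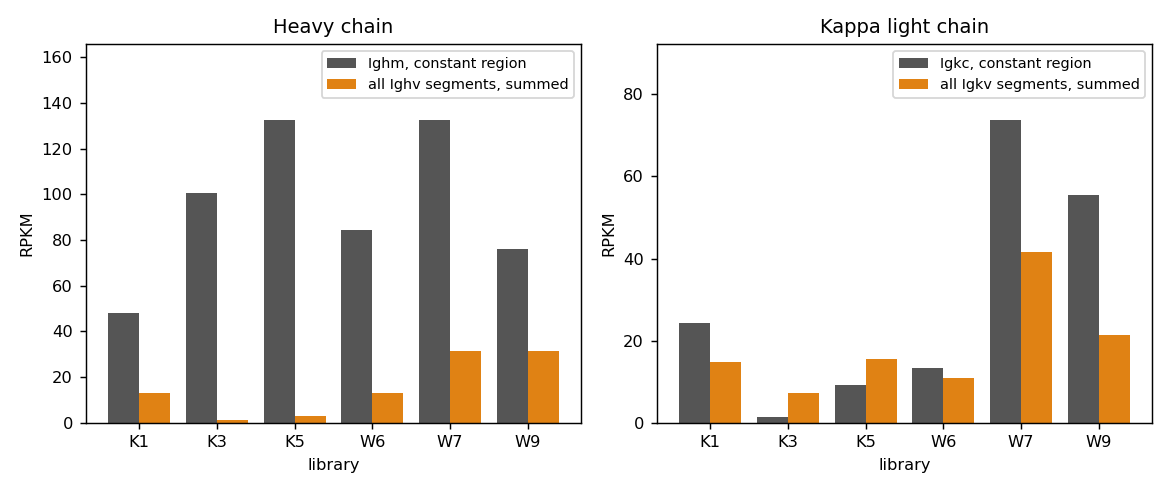
RPKM of a constant region (grey) and the sum over its variable segments (orange) in each library, for the heavy chain (left) and the kappa light chain (right), on linear axes from 0. In K3 and K5, Ighm stood at 100.5 and 132.5 RPKM beside 1.42 and 2.89 RPKM of Ighv segments.

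Genes that define mature B cells were at 0 or low. Ms4a1 (CD20), Cr2 and Fcer2a had no read in any library. Cd22 had 2, 2 and 1 reads in K1, K3 and K5 and 12, 2 and 5 in W6, W7 and W9, and reached 1.32 RPKM in W6. Its counts in W6 and W9 were above the 3 reads that a count of 0 allows. Its groups did not overlap, at 0.0987 to 0.200 RPKM against 0.238 to 1.32 RPKM, and its mean was below that needed for the test. Ighd (the delta constant region) was at 0.417 to 1.53 RPKM and Tnfrsf13c (the BAFF receptor) at 0 to 1.36 RPKM. The mature B cell marker list summed to 0.831 to 1.99 RPKM in the K libraries and to 0.909 to 2.84 RPKM in the W libraries. Ighm and Cd79b were thus each above the whole list in every library.

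Beyond the members, 57 further B lineage genes were examined by role. Of these, 13 had no read and 25 reached a mean of 1 RPKM. Limma called 0 of them higher and 1 lower in K, against 3.35% of all 12037 genes tested (0.523% higher and 2.82% lower), and the median log2 fold change of the 25 was -0.19 against 0.03 over all tested genes. At an unadjusted p under 0.05 there were 4 higher and 8 lower, where 6.43% and 9.45% of all tested genes were. Limma-voom on the recovered reads called 0 higher and 2 lower (Lyn and Xbp1), where it called 0.764% and 3.75% of all tested genes. The groups did not overlap for 10 of the 25, 3 higher and 7 lower, where 22.6% of all tested genes had no overlap. Nothing is read from setting these counts beside the shares, since the list was chosen with earlier results of these data known.

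The gene that fell was Lyn, a Src family kinase that acts downstream of the B cell receptor and is also found in myeloid cells. It was at 31.5, 27.0 and 35.1 RPKM in K1, K3 and K5 and at 60.1, 49.6 and 51.2 RPKM in W6, W7 and W9, with no overlap. Its log2 fold change was -0.77 (standard error 0.15, limma adjusted p = 0.0287), and the call was lost without any 1 of the 6 libraries (limma adjusted p between 0.0629 and 0.109), with a replicate block (0.0686) and without the intensity trend (0.0628). Of the 11 signalling genes tested, the other 10 did not pass. The most abundant were Ptpn6 (141.7 ± 19.0 against 189.8 ± 12.7 RPKM), Vav1 (83.4 ± 5.44 against 85.9 ± 8.13 RPKM) and Syk (69.9 ± 8.19 against 80.3 ± 5.89 RPKM; SD, n = 3 each), all of which act in myeloid as well as B cells.

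Among 13 transcription factors, the 5 that were tested are shared with other blood lineages and none passed. Irf8, which acts in B cells, monocytes and dendritic cells, was at 126.5 ± 19.4 against 172.1 ± 31.0 RPKM (limma adjusted p = 0.244). Xbp1, which drives secretory capacity in plasma cells and other secreting cells, was at 71.4 ± 7.91 against 116.0 ± 26.1 RPKM (limma adjusted p = 0.0896), and Ikzf1, an early lymphoid regulator, was at 82.1 ± 9.67 against 80.3 ± 1.42 RPKM (SD, n = 3 each). Pou2af1 and Lef1 had no read, and Bach2, Irf4, Bcl11a and Prdm1 had means under 0.1 RPKM.

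The early lymphoid and recombination genes were likewise uneven in presence. Flt3, a cytokine receptor of early progenitors, was abundant at 196.3 ± 18.8 against 157.2 ± 30.8 RPKM (SD, n = 3 each), with overlap. Il7r, the interleukin-7 receptor needed by early B cells, was at 0.942, 3.27 and 1.33 RPKM against 2.67, 4.16 and 0.526 RPKM, also with overlap. The recombinase genes were at the limit of detection, with no read on Rag1, 7 reads in all on Rag2 and 1 read on Dntt.

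Of 11 surface antigens, Tnfrsf13b (the TACI receptor, 34.8 ± 3.84 against 40.2 ± 10.4 RPKM) was the most abundant (SD, n = 3 each). Cd180, a Toll-like receptor homologue, ran from 7.98 to 16.1 RPKM in the K libraries and from 13.3 to 18.2 RPKM in the W libraries, and Cd72 was at 0.846 ± 0.484 against 2.07 ± 0.421 RPKM (SD, n = 3 each). None of these 3 passed the test, and the other 8 were below the mean of 1 RPKM. Of a list of 11 further genes, made up of immunoglobulin constant genes and Jchain, 4 were tested (Igha, Jchain, Iglc1 and Ighg2c) and none passed. Iglc1 (a lambda light chain) and Ighg2c (a gamma heavy chain) had 7 and 21 reads over the 6 libraries, and Ighg1, Ighg3, Ighe and Iglc2 had none. The remaining surrogate chain partner, Vpreb3, had 2 reads in K5 and 1 in W9, the same libraries and read counts as Igll1.

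**Figure D4:**
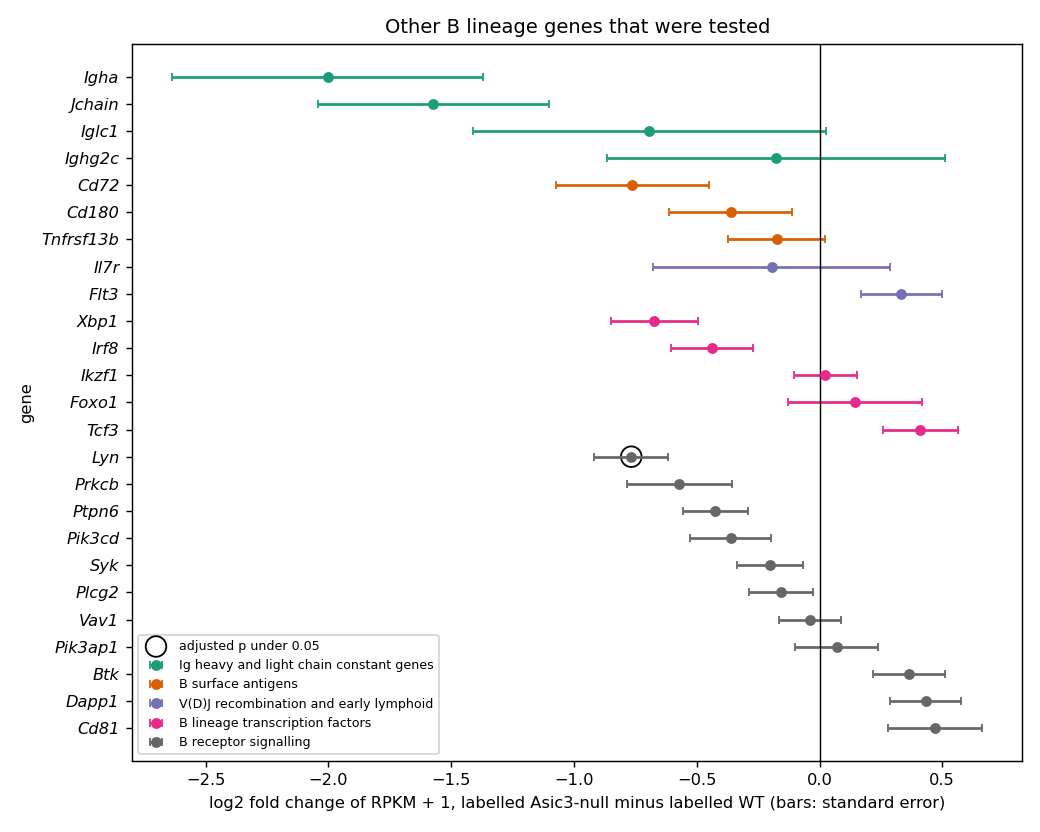
Log2 fold change of RPKM + 1 (labelled Asic3-null minus labelled WT) with its standard error for the 25 other B lineage genes tested, coloured by role. The open circle marks an adjusted p under 0.05. Lyn alone carried the circle, at -0.77, and Igha (-2.00) and Jchain (-1.57) had the largest differences with wide standard errors.

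Markers of other cell types were read beside these values, and their part in them was not tested. The plasma cell list summed to 63.4 to 79.6 RPKM in the K libraries and 93.2 to 144.8 RPKM in the W libraries, almost all of it Xbp1, while Mzb1 was at 0.477 to 2.27 RPKM, Sdc1 (CD138) at most at 0.279 RPKM and Tnfrsf17 (BCMA) at 1 read in all. The T cell list summed to at most 1.02 RPKM in any library, with Lck at up to 0.741 RPKM, Cd3d and Cd3g at up to 0.325 and 0.502 RPKM, and Cd3e, Cd4 and Cd8a at 0. The NK cell list summed to 7.44 to 19.0 RPKM, almost all Nkg7, with Klrd1 at 1 read and Ncr1, Klrb1c and Gzma at 0. The erythroid list summed to 0.972 to 2.41 RPKM in the K libraries and 2.84 to 10.3 RPKM in the W libraries, highest in W6. These sums came from 4 to 15 reads per library. The alpha globins Hba-a1 and Hba-a2 were at up to 4.25 and 3.38 RPKM and Klf1 was at 0.547 to 1.67 RPKM. Of the plasmacytoid dendritic cell list (85.1 to 136.5 RPKM, mostly Bst2 and Tcf4), Cox6a2 was called higher in K (4.72 ± 2.20 against 0.928 ± 0.308 RPKM, SD, n = 3 each, limma adjusted p = 0.0447), while Siglech was at most at 0.595 RPKM. The Cox6a2 call was lost without any library but K1 (limma adjusted p between 0.0808 and 0.153), with a replicate block (0.0761), with no filter on low values (0.0798) and by limma-voom (0.121).

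Of the MHC class II genes, which B cells and other antigen-presenting cells use, H2-Ab1 was called higher in K (22.8, 31.0 and 29.6 RPKM against 12.8, 16.4 and 14.5 RPKM, log2 fold change 0.88 with a standard error of 0.17, limma adjusted p = 0.0289). That call was lost without any library but K1 (limma adjusted p between 0.0673 and 0.134), when low genes were kept (0.0519) and without the intensity trend (0.0521). The list as a whole summed to 190.0 to 219.4 RPKM against 195.5 to 226.2 RPKM, mostly H2-DMa and H2-DMb1, and its regulator Ciita had no read. Cd74, the invariant chain, was at 0.916, 1.48 and 0.602 RPKM against 0.336, 6.17 and 3.58 RPKM. Like Igkc, Cd74 was highest in W7 and next in W9, but it was lowest in W6 while Igkc was lowest in K3. Of 9 sort and myeloid genes, Itgam, Lyz2, Csf1r and Elane were called lower in K, and Prtn3 and Ctsg were the most abundant. The Elane call was lost when any single library was left out (limma adjusted p between 0.0586 and 0.165), when low genes were kept (0.119), without the intensity trend (0.105) and with quantile normalization (0.0664), and the calls of Itgam, Lyz2 and Csf1r held in each of these cases. Lyz2, the lysozyme of myeloid cells, was at 96.4, 131.5 and 106.0 RPKM in K1, K3 and K5 and at 1198, 1379 and 770.5 RPKM in W6, W7 and W9, and was high in W6 as well, where Igkc was low. Mpo, a granule enzyme of myeloid progenitors, was at 242.2, 336.6 and 285.7 RPKM in K1, K3 and K5 and at 190.9, 789.5 and 548.0 RPKM in W6, W7 and W9, and was, like Igkc, highest in W7 and next in W9.

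Likeness to a member over the 6 libraries was measured as the root mean square difference of centred log2(RPKM + 1) values, for the 2 members with the widest range. Nearest to Igkc, whose log2 range was 5.02, were Sgk1 (a serum-induced kinase, difference 0.765), Ighv8-12 (a heavy chain variable segment, 0.879) and Snord99 (a small nucleolar RNA, 0.904). Nearest to Vpreb1, whose log2 range was 2.51, were Npy (neuropeptide Y, 0.305), Gm7160 (0.319) and Aqp11 (an aquaporin, 0.400). The values of Vpreb1 rest on at most 7 reads per library.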

How the data were processed

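Total RNA of sorted LICs was sequenced from 3 libraries labelled Asic3-null and 3 labelled WT, prepared with the TruSeq v2 protocol, which does not mark strand. Per the submitters' processing notes, CASAVA 1.8.2, TopHat2 2.0.12 and the GRCm38 build were used. The authors deposited RPKM values for 27179 genes by Entrez number. The counting tool and annotation are not given in the sources used here. RefSeq symbols for GRCm38.p6 matched 25275 of the identifiers, including all 9 members, all 57 other B lineage genes and 53 of 54 markers.

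Reads were recovered as the smallest whole numbers that give back the RPKM values, within 1e-06 reads for all 16825 genes above 0, and made up 99.6% of the inferred library sizes. Tests covered the 12037 genes whose RPKM averaged 1 or more, on log2(RPKM + 1) in R 4.3.3 with limma 3.58.1 (intensity trend, Benjamini-Hochberg adjustment over all of them, threshold 0.05, 2-sided), where changes of low genes are understated. The step was tested on simulated data. Promoter motifs, alignments and figures used Python 3.11.15, pandas 2.3.3, biopython 1.88 and matplotlib 3.10.9.

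Members and lists were chosen with earlier results of these data known. Named were all members, the called genes and the 3 most abundant of each list or role, the mature B cell markers and the label checks. A gene under this rule is not reported here. Jchain, Igkv14-111, the summed segments, Cd74, Mpo, Kit, genes listed at or near 0 and the pairwise ranking of libraries were chosen after their values were seen. Alternatives were limma-voom on recovered reads, quantile normalization, median-ratio scaling, a fit without intensity trend, a replicate block, a pseudocount of 0.1, a minimum of 5 or none for the mean RPKM, and each library left out.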

Additional observations from a re-analysis of the deposited data

How the results depend on the processing

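Over 12037 genes, 63 were called higher and 340 lower in K (labelled Asic3-null), and leaving out 1 library gave 16 to 39 higher and 156 to 222 lower. Of the other B lineage genes 1 (Lyn) was called, against 0 with no intensity trend, 2 by limma-voom on recovered reads (Lyn and Xbp1) and 0 to 1 with a library left out, where the gene called was Igha or Jchain and not Lyn. The cause was not tested, beyond the smaller number of libraries in the last. The log2 fold change of Igkc was negative and that of Cd79b within its standard error of 0 throughout the scaling, pseudocount and filter alternatives, and Vpreb1 had no value at a mean RPKM of at least 5. Low depth limits Cd79a, Igll1, Ebf1, Pax5 and Blnk, which had 0 to 3 reads per library.

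The labels number both groups 1 to 3. Deviations of same-numbered libraries from their group means correlated at 0.06, -0.06 and -0.12, and 2 of 6 libraries correlated best with their own number. No pairing by number was seen, but 3 libraries per group are too few to decide whether any exists. With the replicate block, 33 genes were called higher, 213 lower and 0 of the other B lineage genes.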
